A study of Drosophila melanogaster with 2 samples.

Results

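The regions described are the peaks of Ken-GFP that lie between or beside 2 protein-coding genes whose transcripts start on opposite strands, a layout called a divergent or paired promoter. They were selected on the measured signal and on how well its rank repeated, since they come from the conservative peak list made from both replicates. Of the 2031 peaks of that list on the main chromosome arms, 677 had a summit within 500 bp of a start on the plus strand and within 500 bp of a start on the minus strand. These 677 peaks are called members. The comparison set was 1512 ranked candidate peaks with the same layout that the authors did not list. Of these candidates, 157 had a summit within 500 bp of a listed summit and stayed in the set. The other listed peaks were 961 with starts on 1 strand only and 393 farther than 500 bp from any start. The data were lists of ChIP-seq peaks from whole embryos of Drosophila melanogaster, aged 0 to 24 h, of a transgenic strain with Ken fused to eGFP. There was 1 group with 2 biological replicates. Immunoprecipitation was with an antibody against GFP, by the description of the samples, although their antibody field reads ken. Whole embryos of all these ages mix many cell types, so more cells with Ken at a site and more Ken per cell cannot be told apart, and a control experiment named as possible in the labels was not analysed here.

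The ken and barbie gene encodes Ken, a zinc finger factor with a BTB domain that represses some targets of JAK-STAT signalling. In flies many genes used by most cells stand head-to-head, so that a short stretch of DNA serves 2 promoters that are transcribed away from each other. A pair of sequence words is known from such promoters, CGATA, the core bound by the insulator protein BEAF-32, and TATCGATA, bound by the DNA replication-related element factor Dref. Both words overlap, and each TATCGATA holds 2 overlapping matches to CGATA, 1 on each strand.

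The stretch between the 2 starts of Ube3a and CG7600, a pair on arm 3L, shows the layout whole. Ube3a encodes an E3 ubiquitin ligase and lies on the minus strand, and CG7600 lies on the plus strand. The sequence is that of the plus strand of the release 6 assembly of RefSeq, which has dm6 coordinates, without the first transcribed base of either gene. Capitals mark CGATA and its complement TATCG, which occur 4 times in its 202 bases.
Ube3a/CG7600, chr3L:11210584-11210785: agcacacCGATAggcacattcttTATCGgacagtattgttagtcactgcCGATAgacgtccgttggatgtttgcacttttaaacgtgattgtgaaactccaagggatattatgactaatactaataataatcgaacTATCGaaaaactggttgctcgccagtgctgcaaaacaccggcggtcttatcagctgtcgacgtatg

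The sequences at 7 more of the strongest members, on arms 2L, 3L and 3R, are shown for the placing of the core words at the summit. Each stretch reaches 50 bp to either side of the summit or ends where an exon begins, on the plus strand, with the same capitals.
RpL32/CG7943, chr3R:30046195-30046295: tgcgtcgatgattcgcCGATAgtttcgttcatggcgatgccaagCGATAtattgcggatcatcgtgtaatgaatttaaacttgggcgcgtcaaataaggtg
Mic26-27/CG5916, chr3R:16146856-16146951: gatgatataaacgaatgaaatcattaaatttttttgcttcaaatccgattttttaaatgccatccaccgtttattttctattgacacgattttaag
PRL-1/EndoGI, chr2L:16257607-16257687: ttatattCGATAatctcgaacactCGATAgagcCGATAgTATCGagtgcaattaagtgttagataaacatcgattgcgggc
Sec61alpha/Daxx, chr2L:6480826-6480926: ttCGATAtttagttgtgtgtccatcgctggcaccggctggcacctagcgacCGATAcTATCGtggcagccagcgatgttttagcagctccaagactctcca
CG15356/CG15362, chr2L:1980779-1980879: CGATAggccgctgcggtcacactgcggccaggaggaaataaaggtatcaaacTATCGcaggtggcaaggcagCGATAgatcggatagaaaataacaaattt
GstO1/foi, chr3L:8525170-8525243: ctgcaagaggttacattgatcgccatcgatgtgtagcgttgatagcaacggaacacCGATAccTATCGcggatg
janA/Sry-alpha, chr3R:30039660-30039718: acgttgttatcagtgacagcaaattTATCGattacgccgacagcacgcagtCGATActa
The PRL-1/EndoGI stretch held 4 matches in 81 bases, while the Mic26-27/CG5916 stretch held 0 in 96 bases and had its 3 matches farther out, within 100 bp of the summit.

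The 20 strongest members all had their summit between the 2 starts, all held CGATA within 100 bp of the summit, with 2 to 7 matches, and all stood in the thresholded lists of both replicates. Signal is the authors' value for each peak, deposited without a stated scale, and whether its scale is equal in both replicates is not known. The highest was at TAF1C-like/MESK2, 1168, with 486 in replicate 1 and 679 in replicate 2. MESK2 encodes a protein of the NDRG family. Rpn6/ave followed with 886, with 405 in replicate 1 and 491 in replicate 2. Rpn6 is a subunit of the proteasome lid, and ave encodes a scaffold protein of Ras signalling to MAP kinase. Ube3a/CG7600 had a signal of 868, with 451 and 391 in replicates 1 and 2, so it was 1 of the 5 that were higher in replicate 1.

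RpL32/CG7943, at a gene for a protein of the large ribosomal subunit, had a signal of 842, with 345 in replicate 1 and 489 in replicate 2. Mic26-27/CG5916, at a gene of the mitochondrial inner membrane complex that shapes cristae, had 642, with 242 and 370. At hts/CalpA, which encode the cytoskeletal protein adducin and a calpain protease, the signal of 636 came with 315 and 312, nearly equal in both replicates. PRL-1, a phosphatase, and EndoGI, an inhibitor of endonuclease G, shared a peak of 580, with 258 and 336. Their starts are 82 bp apart, the closest of the 20. Sec61alpha, the channel through which proteins enter the endoplasmic reticulum, and Daxx, a histone chaperone, shared a peak of 565, with 268 and 294. The RabX1/mi pair, with a small GTPase, had the same rounded signal of 565, with 196 and 373.

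The remaining members of the 20 had signals from 552 at CG15356/CG15362 down to 448 at Cdc50/rngo. They included GstO1/foi (524), a glutathione transferase and a zinc transporter; janA/Sry-alpha (505), the second of which acts in cellularization of the embryo; and shtd/CG6294 (505), of which shtd is a subunit of the anaphase-promoting complex. Chromatin factors were at XNP/CG42488 (483), the fly ATRX remodeller, and Spps/CG13609 (476), a zinc finger factor that binds Polycomb response elements. Further ones were rb/CHOp24 (472), wmd/levy (463), mth/Ptpmeg (460) and fy/emb (456), where rb is a subunit of the AP-3 adaptor, levy a subunit of cytochrome c oxidase, fy a planar polarity protein and emb the nuclear export receptor. Start-to-start distances of the 20 ran from 82 to 502 bp with a median of 257.5 bp.

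The label was checked against the annotation. The starts faced away from each other at 666 of the 677 members, 98.4% (exact 95% interval 97.1 to 99.2). The same held for 1444 of the 1512 unlisted candidates, 95.5% (94.3 to 96.5), so it is usual for this layout. At the other 11 members the 2 transcripts overlapped at their 5' ends. The strongest of these 11 were Torsin/Cbp80 (295), CG6136/Ccm3 (210) and Mob2/CG7394 (205). The members belonged to 616 distinct pairs with 1229 genes, and 61 pairs held 2 members. No member lay on chromosome 4 or Y, but no unlisted candidate of this layout did either. Intervals here and below cover counting error only, and peaks, which can share a pair, are not replicates.

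Summits of head-to-head members lay mostly between the starts. This was so for 540 of 666, 81.1% (77.9 to 84.0), against 637 of 1444 head-to-head candidates of the ranked list that were not listed, 44.1% (41.5 to 46.7). The remaining members were inside the plus-strand gene in 65 cases and inside the minus-strand gene in 61. Among the 540, 250 were in the central 50% of the stretch, 46.3%, and the median distance from the midpoint was 64 bp. The summit was nearer the plus-strand start in 345 members, nearer the minus-strand start in 318 and equally near in 3, close to an even split. By protein-coding annotation 466 member summits, 68.8%, were intergenic, 159 were in a 5' UTR, 39 in an intron and 13 in a coding exon. A summit is only as exact as the peak call, and 528 members, 78.0%, had the usual width of 410 bp with the summit at the centre.

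The distance between the starts varied widely. Its median over head-to-head members was 266 bp (quartiles 122 and 359), with a range from 2 bp at Zpr1/CG44532 to 811 bp at TM9SF3/mthl2. Outside the list the median was 246 bp. Zpr1, a zinc finger protein, had a signal of 95.1, with 31.7 and 58.5 in replicates 1 and 2, and mute/Ufm1, with starts 14 bp apart, had 79.2. After TM9SF3/mthl2 (215) the widest were CG32243/CG11357 at 807 bp (68.4) and DnaJ-1/Usp47 at 784 bp (42.3). Head-to-head pairs were counted only if a ranked candidate had its summit within 500 bp of both starts. Annotated pairs with no such candidate were not counted. Of those with one, pairs with a member or with no listed summit within 500 bp of a start were kept. Pairs with a listed summit that near but no member of their own were left out. Of the 1466 pairs counted, 605 had a listed peak, 41.3% (38.7 to 43.8). That share differed by less than its counting error across distances up to 500 bp. It was 40.5% (34.9 to 46.4) under 100 bp, 41.6% (34.95 to 48.4) from 100 to below 200 bp, 42.7% (37.7 to 47.8) from 200 to below 300 bp and 44.5% (39.8 to 49.3) from 300 to below 500 bp. Above that it was 26.8% (19.3 to 35.4), 34 of 127 pairs. There the limit of 500 bp from the summit leaves fewer positions that qualify, for listed and unlisted candidates alike. The reason for the lower share was not tested. Summits were between the starts in 56.9% of the members with starts under 100 bp apart and in 100% of those with at least 500 bp. The 100% is fixed by the limit of 500 bp, since a summit outside so long a stretch would be too far from the farther start. Longer stretches also leave less room outside them within that limit, so the rise with distance follows in part from the rule.

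**Figure D1:**
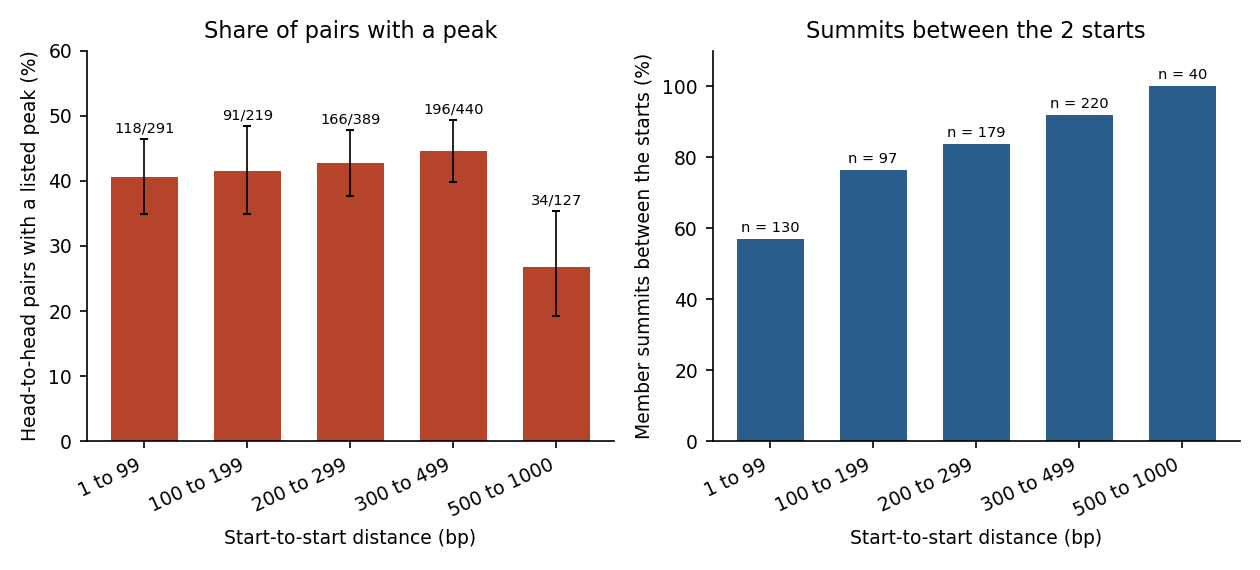
Head-to-head pairs by the distance between their starts (bp). The left panel gives the share of pairs with a listed peak, among pairs with a ranked candidate (percent, bars, with exact 95% intervals and counts). It lay between 40.5% and 44.5% below 500 bp and was 26.8% above. The right panel gives the share of member summits that lie between the starts, from 56.9% to 100%. Its last value is fixed by the limit of 500 bp from summit to start.

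Listing was then set against the layout, among all candidates that the authors ranked. Of the 148989 candidates on the main arms 2031 were listed, 1.36%, and of the 2189 with starts on both strands 677 were listed, 30.9% (29.0 to 32.9). Of the 15507 candidates with starts on 1 strand 961 were listed, 6.20% (5.82 to 6.59), and of those farther out 0.299%. The layout and the list define the members, so these shares are a description. The paired share depends on the limits chosen: it was 16.5% with starts within 1000 bp of the summit and 17.3% for peaks with a global IDR, the measure of irreproducibility used for the list, of at most 0.001. Summits of paired candidates could lie nearer a start, so the shares were compared within bands of distance to the nearest start. Within 24 bp the paired share was 42.0% and the single share 22.4%, a difference of 19.6 percentage points (14.3 to 24.9). From 50 to 99 bp they were 38.6% and 12.7%, a difference of 25.9 points (21.5 to 30.4), and from 200 bp on 4.83% and 1.42%, a difference of 3.41 points (1.60 to 6.19). The paired share was the higher one in all 5 bands.

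**Figure D2:**
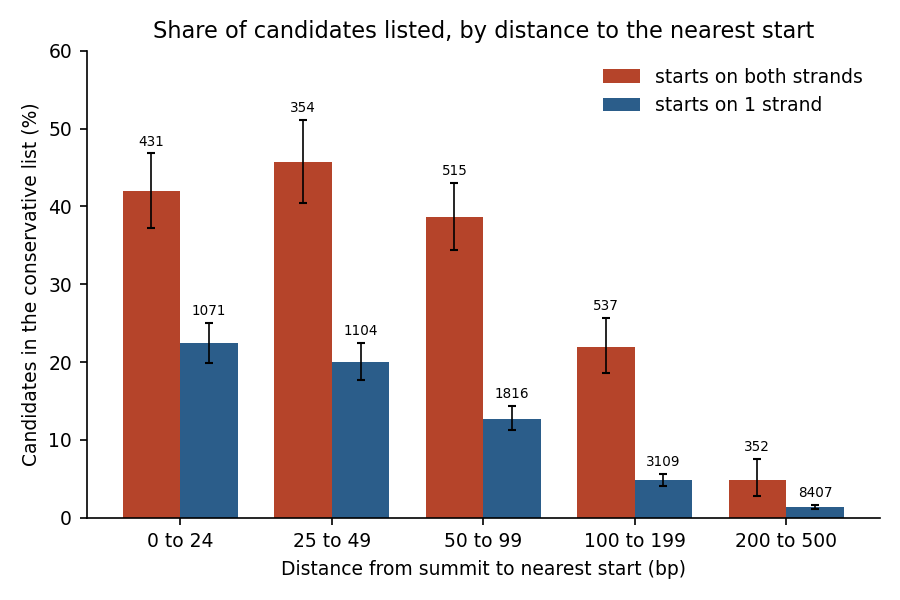
Share of ranked candidates in the conservative list (percent, bars from 0, exact 95% intervals, number of candidates above each bar) by distance from the summit to the nearest start (bp). Candidates with starts on both strands stand above those with starts on 1 strand in every band, 42.0% against 22.4% in the nearest one.

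The core word CGATA was far more frequent at members than at unlisted candidates of the same layout. It was present within 100 bp of the summit in 607 of 677 members, 89.7% (87.1 to 91.9), against 601 of 1512, 39.7% (37.3 to 42.3), a difference of 49.9 points (46.4 to 53.1). Over all ranked candidates it was in 21.2%. The motif was not used to choose the members. Against the strongest candidate of each of the 897 pairs with no listed peak, of which 42.6% held it, the difference was 47.1 points (43.0 to 50.9). Listed peaks with starts on 1 strand held it in 81.6%, which is 8.08 points below the members (4.65 to 11.4 points). At least 2 matches were in 73.3% of members and 18.98% of the unlisted candidates. Member summits also lay nearer a start, at a median of 48 bp against 99 bp for unlisted candidates. The shares above are not matched for that distance. Among paired candidates with a start under 50 bp away, 57.3% of those with CGATA and 6.64% of those without it were listed.

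GC content differed as well, with a median of 37.3% at members and 42.3% outside the list, so the shares were repeated within bands of GC. Below 35% GC the word was in 90.8% of members and 50.9% of candidates outside, from 35 to 40% GC in 89.3% and 55.0%, from 40 to 45% GC in 93.8% and 40.3%, and from 45% GC on in 80.0% and 26.4%. The difference from the candidates outside therefore stood in each band. Listed peaks with starts on 1 strand held the word in 81.7, 91.8, 85.8 and 63.2% of peaks in these bands in turn, which is above the members from 35 to 40% GC and below them in the other 3. TATCGATA was in 240 members, 35.5% (31.8 to 39.2), against 7.08% outside (5.84 to 8.49), 33.6% of the listed peaks with starts on 1 strand and 0.894% of all candidates. The interval of the difference from the peaks with starts on 1 strand, 1.84 points (-2.81 to 6.53), includes 0.

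The word was concentrated at the summit and just before the starts. Within 40 bp of member summits its density was 17.6 matches per kb, and beyond 300 bp it was 1.73 per kb. For unlisted candidates the same values were 4.14 and 1.70, so the flanks were alike. Listed peaks with starts on 1 strand had 19.8 and 1.45, so the concentration is not particular to paired promoters. The nearest match lay a median of 23 bp from the summit in the 667 members with one in reach of 500 bp, and 108 bp in 1286 unlisted candidates. Seen from the starts of head-to-head pairs, the density was highest from 40 to 20 bp before the start, at 21.7 per kb for 1210 member starts and 8.48 per kb for 1722 starts of pairs with no listed peak. Because summits of members lie close to starts, these positions describe the same sequence from 2 reference points.

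**Figure D3:**
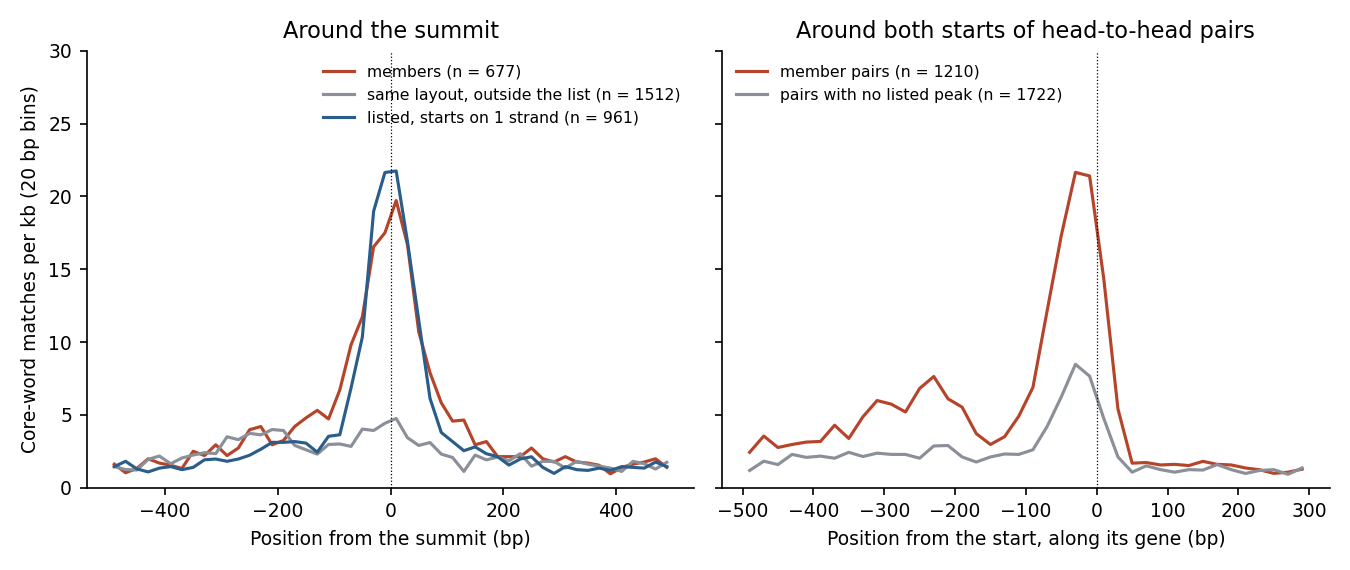
Density of CGATA matches on either strand (matches per kb, bins of 20 bp) by distance from the summit (left, bp) and from the start along its gene (right, bp). The lines for members rise to 19.7 per kb at the summit and 21.7 per kb before the start, those for unlisted candidates or pairs to 4.76 and 8.48 per kb, and the line for listed peaks with starts on 1 strand to 21.7 per kb at the summit; negative positions on the right are upstream.

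The share of candidates that were listed rose with the number of matches in both layouts. With 0 matches 7.14% of paired candidates were listed, with 1 match 26.1%, with 2 matches 50.1%, with 3 matches 66.9%, with 4 matches 80.0% and with 5 or more 90.2%. Among candidates with starts on 1 strand the shares were 1.59, 4.02, 26.5, 53.8, 74.1 and 89.1%. The difference between layouts was 22.1 points (18.1 to 26.5) at 1 match and 13.1 points (5.37 to 20.5) at 3. At 4 matches it was 5.95 points (-3.95 to 15.1) and at 5 or more 1.10 points (-9.80 to 9.52), so both intervals include 0. Among candidates with CGATA and a start under 50 bp away 57.3% of the paired and 43.5% of the single ones were listed, a difference of 13.8 points (8.66 to 18.8). Signal also followed the count within the members, with a median of 70.5 at 0 matches, 133 at 1, 141 at 2, 167 at 3 and 193 at 4 or more. Without the members that have a stronger listed summit within 500 bp, the medians were 135 over 39 members at 0 matches, 139 at 1, 144 at 2, 169 at 3 and 198 at 4 or more. The members left out were defined by a signal below that of a neighbour, so a rise on their removal is in part built in. These medians describe values on which the members were selected.

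**Figure D4:**
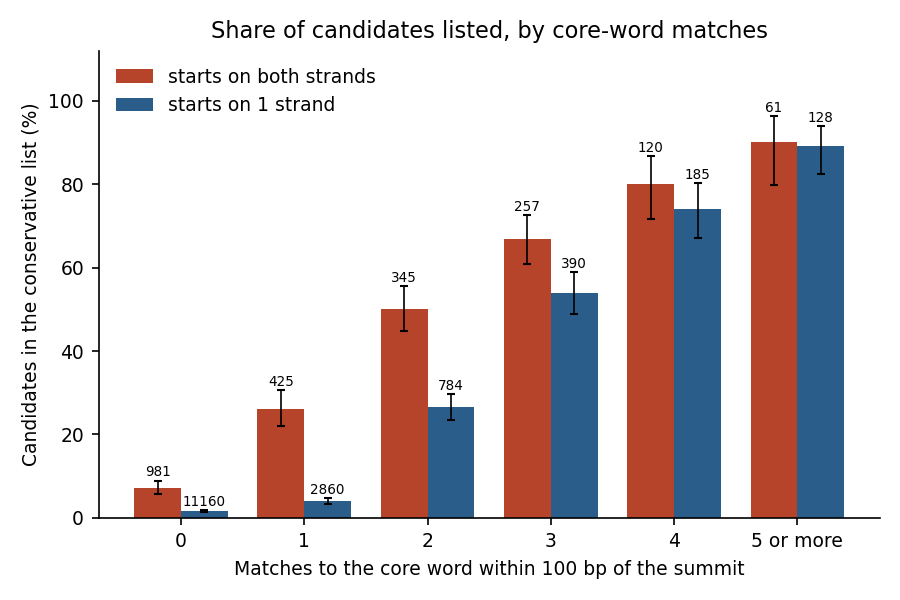
Share of ranked candidates in the conservative list (percent, bars from 0, exact 95% intervals, number of candidates above each bar) by the number of CGATA matches within 100 bp of the summit. The bars rise from 7.14 to 90.2% with starts on both strands and from 1.59 to 89.1% with starts on 1 strand, and their intervals overlap at 4 matches and above.

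For 7 of the 10 words sought, the interval of the difference between members and unlisted candidates of their layout includes 0. The published Ken consensus, searched on both strands as GNGAAAG or GNGAAAT, was in 21.9% of members (18.8 to 25.2), 21.8% of the candidates outside and 25.1% of all candidates, a difference between the first 2 of 0.04 points (-3.62 to 3.87). Palindromic STAT sites with a spacer of 3 bases, TTCNNNGAA, were in 5.91% and 6.28%, and those with a spacer of 4 in 7.24% and 6.88%. The E-boxes CAGCTG (13.4 and 15.7%) and CACGTG (3.55 and 3.31%) and GAGAG (13.9 and 16.3%) had differences whose intervals include 0, and so did GGTCACACT, known as Motif 1 of core promoters (5.61 and 3.77%). Over all candidates these words were in 5.09, 5.54, 10.3, 2.87, 23.0 and 0.250%. A word that was not found says only that these letters are absent from the window.

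The signal of members had a median of 151 (quartiles 103 and 229, range 2.24 to 1168), while listed peaks with starts on 1 strand had 133, listed peaks away from starts 90.6 and unlisted paired candidates 26.3. Members made up 9 of the 20 and 33 of the 100 strongest peaks, beside 33.3% of all listed peaks. In the thresholded list of replicate 1, which holds 1.13% of its ranked candidates, a summit lay within 200 bp of 464 members, 68.5% (64.9 to 72.0). In that of replicate 2, which holds 1.43% of its candidates, it lay near 578, 85.4% (82.5 to 88.0). Both lists held 431 members, 63.7% (59.9 to 67.3), from 13.5% of the members below the lower quartile of signal to 100% of those above the upper one. Membership rests on both replicates, so these shares are no independent check.

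A signal in both replicates was found for 633 members, by the nearest candidate summit within 200 bp in each. Their median was 70.1 in replicate 1 and 91.9 in replicate 2, and 472 members, 74.6% (71.0 to 77.9), were higher in replicate 2. Of the listed peaks with starts on 1 strand 65.5% were, and of those away from starts 28.2%. Across members Spearman's rho of the replicate signals was 0.75 and Pearson's r of their log2 values 0.76 over 633 peaks of the same 2 libraries, as a description of peaks chosen for repeating ranks. The largest log2 differences toward replicate 2 were at Mrgn1/mus101 (34.97 and 125), CG12099/Pex10 (46.6 and 159) and EMC3/Dpy-30L1 (39.7 and 125). Toward replicate 1 they were at CG12213/GC1 (176 and 31.9), wmd/levy (176 and 53.4) and CG9641/CG3165 (115 and 39.3). The first 2 of those are weaker second members of their pairs, with signals of 36.8 and 74.2, and took the replicate 1 candidate that also serves the stronger member beside them.

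**Figure D5:**
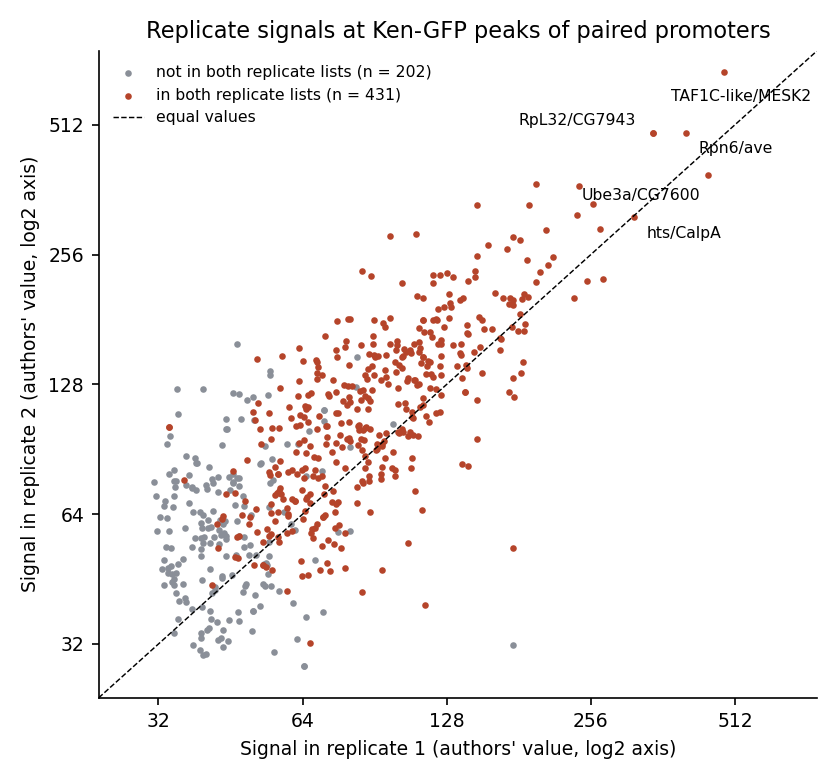
Signal of 633 members in replicate 1 (x) and replicate 2 (y), both on log2 axes, with the line of equal values. Red points, 431 members, are in the thresholded lists of both replicates and grey points, 202 members, are not; 472 points lie above the line.

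Some members stood beside a stronger listed summit. This held for 66 members, 9.75% (7.62 to 12.2), among them 44 of the 49 with a signal under 50. Their median signal was 27.4, against 166 for the other 611. The 66 were set apart by a comparison of signals, so lower values among them are in part built in. Of the 70 members without CGATA 31 were of this kind, 44.3%, and of the 607 with it 35, 5.77%. Among the 611 without such a neighbour CGATA was in 93.6% (91.4 to 95.4). This leaves 39 members without CGATA and without a stronger neighbour, of which CG1105/CG1965 (378), Mppe/pds5 (343) and Pif1A/CCT7 (294) were the strongest, where CCT7 is a subunit of the chaperonin that folds actin and tubulin. These 3 were chosen after their values were seen.

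Members with the highest global IDR were ncd/ca (signal 70.7, IDR 0.00990), Zpr1/CG44532 (95.1, 0.00970) and CG43191/128up (73.04, 0.00962). Just beyond 0.01 stood Ufl1/CG1943 (77.1, 0.0101), MED30/Rev1 (81.9, 0.0102) and Vha55/Snx3 (55.5, 0.0104). At the edge in distance, the farther start was 498 bp away at Tnks/RASSF8 (65.9) and 497 bp away at uncNacbeta/CG2794 (14.2) and CG3309/XRCC1 (216). It was 504 bp away at Spase22-23/mask (305), 505 bp at CG11409/Naa30A (308) and 506 bp at CG31510/vig2 (200), which were listed but are not members. At the IDR limit the signals of listed and unlisted peaks overlapped.

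A few unlisted candidates were as strong as many members. Of the 1512, 10 had a global IDR of at most 0.01 and were still not in the conservative list. The strongest was at Pop4/nmo, 347, with 156 in replicate 1 and 195 in replicate 2, where nmo encodes Nemo kinase and Pop4 a subunit of RNase P. Dph4/RpL13A followed with 275 (87.0 and 187), mRpL47/CG8176 with 234 (87.6 and 146.5) and Ras85D/Rlb1 with 202 (92.9 and 110). RpL13A and mRpL47 encode ribosomal proteins of the cytoplasm and of the mitochondrion, and Ras85D is the fly Ras. The fifth by signal at pairs with no listed peak, Arl5/CG13671 (138), differed, with 16.7 in replicate 1, 85.7 in replicate 2 and a global IDR of 0.758. What else decided entry to the thresholded lists is not stated.

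The stretches at the 3 strongest of them, which lie on arms 3L and 3R, are shown for comparison with the members above, on the plus strand with the same capitals.
Pop4/nmo, chr3L:7978886-7978986: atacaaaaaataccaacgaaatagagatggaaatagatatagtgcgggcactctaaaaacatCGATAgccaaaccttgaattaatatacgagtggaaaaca
Dph4/RpL13A, chr3R:5624195-5624295: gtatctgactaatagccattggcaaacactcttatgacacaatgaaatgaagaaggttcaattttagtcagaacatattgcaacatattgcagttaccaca
mRpL47/CG8176, chr3R:9515934-9516006: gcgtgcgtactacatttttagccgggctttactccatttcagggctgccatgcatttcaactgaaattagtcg
Within 100 bp of the summit each of the 3 held 3 matches, although their printed stretches hold 1, 0 and 0.

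Gene groups were counted over the 1229 genes at member pairs, 8.80% of the 13968 annotated protein-coding genes, and over the 1773 at pairs with no listed peak, 12.7%. A gene can be on either list only if it stands in a pair with a ranked candidate within 500 bp of both starts. The gene lists were chosen with earlier results of these data known, so the counts have no test. Vesicle traffic and protein sorting gave the largest count, 34 of 132 genes, 25.8%, with 25 at pairs without a peak. Sec61alpha/Daxx (565), Rab30/Caper (446) and TrpRS/Vps16A (396) led it, where Rab30 is a small GTPase of the Golgi and Vps16A a tethering subunit of lysosomal fusion. Mitochondrial ribosomal proteins followed with 18 of 77, and 20 at pairs without a peak. Their strongest peaks were at Tudor-SN/mRpL17 (447), PIG-N/mRpL42 (364) and HLH4C/mRpL30, in that order. Cytoplasmic ribosomal proteins had 14 of 94 and 14 at pairs without, among them RpL32/CG7943, described above, and RpL36/Mybbp1A (264).

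Genes of the replication and cell cycle list stood at 16 member pairs of 72 genes, and 15 at pairs without a peak. Cdc50/rngo led it by symbol only, since Cdc50 is a chaperone of lipid flippases, followed by Cdk7/snf (297), the kinase of TFIIH beside a snRNP protein, and Psf1/Sac1 (224), a GINS subunit beside a lipid phosphatase. The spliceosome list had 10 of 39, and 12 at pairs without a peak, with U4-U6-60K/CG7564 (348) and SmE/CG34132 (286). Proteasome subunits had 10 of 48, and 8 without, with mRpL39/Prosbeta2 (263) and Prosalpha7/CG1671 (233) after Rpn6/ave. The respiratory chain had 10 of 89 and 21 at pairs without a peak, and its strongest after wmd/levy were ND-SGDH/RhoGAP68F (326) and COX7A/Arl2 (223). Translation factors had 8 of 58, and 8 without, led by eIF3a/CG1074 (416), eIF2Balpha/Vps13B (313) and eIF4E6/CG1951 (252). Aminoacyl-tRNA synthetases had 5 of 32 and 9 without, with ArgRS/CG8578 (265) and GlnRS/RIOK2 (235) after TrpRS/Vps16A, and the tRNA and rRNA processing list had 9 of 37 and 12 without, led by Irp-1B/Rrp46 (398), CG17266/Rpp25 (205) and Prosbeta1/Rrp42 (179).

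Regulators of transcription were also counted. Mediator subunits had 4 of 29 at member pairs and 13 at pairs without a peak, with MED7/Cap-H2 (391), elm/MED27 (237) and Hs6st/MED25 (145). TFIID and RNA polymerase subunits had 9 of 47 and 11 without, led by EMC1/Taf7 (316), Polr1D/brat (292) and Polr2J/CG15141 (205). Taf10b and Taf10, the 2 fly versions of one TFIID subunit, share a pair with starts 45 bp apart and a signal of 203, with 77.7 in replicate 1 and 117 in replicate 2. Insulator proteins had 5 of 17 and 1 without. Ibf1 and Ibf2, which bind insulators together, share a pair with starts 463 bp apart and a signal of 216 (124 and 110), ahead of pita/Dcp-1 (160) and Cp190/CG4338 (145). Of the factors of housekeeping promoters Dref/RpL13 (102) was the 1 of 18 at a member pair, with 5 at pairs without a peak, and it had 45.2 in replicate 1 and 72.8 in replicate 2.

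Of 13 genes of JAK-STAT signalling, the pathway in which Ken is known as a repressor, 4 stood at member pairs and 0 at pairs without a peak. The peak at dome/Ubqn, where dome encodes the receptor, had a signal of 390, of 183 in replicate 1 and 201 in replicate 2. At Ptp61F/CG9166, with a phosphatase that lowers the pathway's activity, it was 343, with 124 and 229. At hop/Tim8, where hop encodes the Janus kinase, it was 314, with 142 and 167. The fourth, coil/Socs44A (113, with 73.1 and 47.3), was named after its value was seen and holds a SOCS family gene. The first 3 lie above the upper quartile of all members, 229, and in each of these pairs the peak cannot be assigned to one of the 2 genes.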

How the data were processed

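ChIP-seq peak lists from 2 biological replicates of 1 group were analysed. Per the labels, chromatin was sonicated to fragments of 200 to 800 bp, and coordinates are on dm6. The deposited lists hold the authors' signal per peak, without a stated scale, the authors' score, capped at 1000, and the deposited global IDR as −log10. The sources used here do not give the aligner or peak caller, and read depth is unknown. Thresholded peaks numbered 1544 and 1819 in replicates 1 and 2, of 137061 and 124478 ranked ones, and 2087 of 152561 in the conservative list. Its 56 peaks on scaffolds were left out. The −log10 global IDR was nowhere in it below 2, so the threshold of 0.01 was read from the values.

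Starts came from protein-coding transcripts of Ensembl release 115, and sequence from the release 6 assembly of RefSeq. The summit was the peak start plus its deposited offset. Windows for words reached 100 bp to each side. The nearest start on each strand defines a pair. The members and lists were chosen with earlier results of these data known, and no test was run. Shares carry exact Clopper-Pearson 95% intervals and differences Newcombe 95% intervals. Named pairs are the 20 strongest, the 3 strongest of each of 15 gene lists, the extremes of distance and of replicate difference, the 5 strongest unlisted pairs, those nearest the threshold and the 3 strongest with overlapping transcripts, unless stated. Some pairs that this rule names are not reported here. Printed sequence was ended at exons, which departs from the planned 101 bp. Scripts used Python 3.11.15, pandas 2.3.3, NumPy 2.4.6, SciPy 1.17.1 and matplotlib 3.10.9, and were tested on simulated data.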

Additional observations from a re-analysis of the deposited data

How the results depend on the processing

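Of 83 values of 10 results under 12 alternatives, 48 stayed within the limit set for the result and 35 moved outside it. No result with a direction was reversed. The limit was the exact interval for shares and a fixed fold range, which is no interval, for the number of members. For medians it was the SD between the single-replicate lists, 6.72 bp for distance and 0.562 for signal. That signal SD comes from medians of 83.1 and 83.9, on the scale of those lists. With starts within 300 bp of the summit the share of same-layout candidates listed was 40.4%, the median distance between starts 219 bp, the unlisted candidates with CGATA 44.3% and with TATCGATA 8.50%, and the median signal of members 168. With 1000 bp these were 16.5%, 309 bp, 29.2%, 3.28% and 145. With the 5' end of each gene only, head-to-head starts were 95.9% and the median signal 149.9. The other list of both replicates gave a median signal of 144.5. With a global IDR of at most 0.001 there were 378 members, 17.3% of the candidates, with a median distance of 253 bp, 90.2% in both replicate lists and a median signal of 215. With words sought within 50 bp, CGATA was in 71.2% of members and 25.4% outside, and TATCGATA in 24.8% and 3.90%. With 1 candidate per unlisted pair, 40.7% were listed and 42.6% of the unlisted held CGATA. Without members beside a stronger summit, an alternative chosen after seeing the data, CGATA was in 93.6%, both replicate lists held 67.9% and the median signal was 166.

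From the list of a single replicate, with the other replicate left out, the share listed ran from 22.5 to 35.1%, the median distance from 258.5 to 268 bp, the unlisted candidates with CGATA from 42.6 to 43.04% and with TATCGATA from 8.32 to 9.50%, the members from 486 to 683, and the median signal, on that list's own scale, from 83.1 to 83.9. No paired analysis was possible because the series has 1 group and no result comes from a test. Depth is unknown, so no limit of detection can be given.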

Other observations

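TATAAA, the word of the TATA box, was in 32.1% of members (28.5 to 35.7) and 23.5% of unlisted candidates of the same layout within 100 bp of the summit, a difference of 8.57 points (4.52 to 12.7). Within bands of GC the shares were closer, 50.6 and 46.1% below 35% GC, 29.4 and 34.3% from 35 to 40%, 17.1 and 18.0% from 40 to 45% and 9.41 and 8.65% from 45% on. In the sense direction from 40 to 20 bp before the start, where a TATA box lies, it was at 11 of 1210 starts of head-to-head member pairs, 0.909% (0.455 to 1.62), at 57 of 1722 starts of pairs with no listed peak, 3.31% (2.52 to 4.27), and at 6.12% of all protein-coding starts.

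Of the genes at member pairs 27.2% were named by a CG number, the placeholder name of an annotated gene, against 39.7% of genes at pairs with no listed peak and 43.7% of all protein-coding genes. Their median length was 2582 bp, against 2129 and 2164.5 bp. These values describe the annotation, and no difference among them was tested.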
